A study of Mus musculus with 8 samples.

Results

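The 50 genes described here encode the machinery of G2 and mitosis: CDK1 and its cyclins, the mitotic kinases, the spindle checkpoint, the kinetochore, the spindle motors, condensin and the proteins that divide the cytoplasm. They were chosen by name, as the rows of the deposited count table that carry 1 of 50 gene symbols, out of 50578 gene identifiers listed. Each symbol matched 1 row, and all 50 passed the filter on low counts. Their RNA was sequenced in primary mouse embryonic fibroblasts (MEFs), labelled WT, either as the control group or after 1 of 3 small molecules at 10 µM, with 2 libraries in each of the 4 groups. Cells of all groups were isolated from mid-gestation C57BL/6J embryos and used at passages 3 to 5, the molecule was added 2 hours after plating, and what the control medium contained in its place is not given in the sources used here. The compounds were carbidopa, an inhibitor of DOPA decarboxylase, LY-364947, an inhibitor of the TGF-beta type I receptor kinase that the sample labels spell LY-364747, and CHIR-99021, an inhibitor of the kinase GSK3. The study chose them as candidates for turning fibroblasts into hepatocyte-like cells, and the time in compound before RNA was taken is not given for these libraries in the sources used here. No source says that the 2 libraries of a group came from separate cultures, so the p-values measure the spread between these libraries, which may be technical.

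In a dividing cell, cyclin A and cyclin B accumulate through G2 and activate CDK1, which drives entry into mitosis. The kinetochore then couples each chromosome to spindle microtubules, the spindle checkpoint holds the anaphase-promoting complex (APC/C) in check until all chromosomes are attached, and the APC/C finally destroys cyclin B and securin so that the chromatids part and the cell divides. Many of these genes are transcribed late in the cell cycle through the DREAM and MuvB complexes with B-MYB and FOXM1, whose target promoters often carry a CHR element and CCAAT boxes. In cultures of fibroblasts their RNA is commonly read as a measure of cells in G2 and mitosis, although in bulk RNA fewer such cells and less of the RNA per cell cannot be told apart.

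Total counts per library ran from 15039566 to 20504338. Levels are given as CPM, counts per 1000000 of the library's TMM-adjusted total, and a difference is a log2 fold change with its standard error (SE) from edgeR's quasi-likelihood test. A gene is said to have risen or fallen where its Benjamini-Hochberg adjusted p over the 15154 genes tested was under 0.05. The 16 macrophage markers summed to 1321 and 1367 CPM in the MEF libraries, which dropped to 430.1 and 412 under carbidopa, 307 and 320 under LY-364947, and 103 and 111 under CHIR-99021. Of the 15 that could be tested, 14 fell under carbidopa, 14 under LY-364947 and 15 under CHIR-99021. In the same order, 19.7%, 17.2% and 20.1% of all genes tested fell. RNA of a second cell type was therefore highest in the MEF libraries, and its part in the results below was not tested. The 11 fibroblast markers summed to 35040 to 35391 CPM in MEFs and 8232 to 11785 CPM in the treated libraries. With each compound 9 of the 11 (81.8%) fell, 1 (9.09%) rose and 1 did not pass the test. Of all genes tested, 18%, 13.7% and 18.7% rose under carbidopa, LY-364947 and CHIR-99021. Col1a2, Lum and Fn1 fell with every compound. The 18 hepatocyte markers summed to at most 1.68 CPM in any library, 12 to 14 of them had no count at all, and none passed the filter, so the defining markers of hepatocytes were at or near 0 in all groups. The 10 epithelial markers summed to 6.24 and 4.45 CPM in the MEF libraries and to between 10.1 and 21.6 CPM in the treated ones. Of the 4 that could be tested, Krt19 rose and Krt7 fell with every compound, and Krt18 and Cldn4 rose with CHIR-99021. Their part in the results was not tested.

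CHIR-99021 lowered the RNA of nearly the whole set. Of the 50 genes, 45 fell against MEF and none rose, in a comparison in which 20.1% of all genes tested fell, and 34 of them fell by more than 2-fold. The median log2 fold change of the 50 was -1.62, a 3.07-fold decrease, beside a median of 0.04 over all genes tested. Carbidopa lowered 18 and raised 1, where 19.7% of all genes fell and 18% rose, with a median of -0.25. LY-364947 lowered 5, or 10%, and raised none, where 17.2% of all genes fell and 13.7% rose, with a median of -0.24. In edgeR no gene of the set was higher with LY-364947 or CHIR-99021 at an unadjusted p under 0.05 either, and DESeq2 raised none. The 5 genes that did not pass the test with CHIR-99021 were Cdc25c, Incenp, Bub3, Pttg1 and Smc2.

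The summed level of the 50 genes did not overlap between any 2 groups. It was 792 and 813 CPM in MEFs, followed by LY-364947 at 736 and 677, carbidopa at 656 and 671, and CHIR-99021 at 386 and 392. The distance between the closest LY-364947 and carbidopa libraries was smaller than that between the LY-364947 replicates. Both CHIR-99021 libraries lay below the other 6 in 46 of the 50 genes, as they did in 12.6% of all genes tested. Between the replicates of a group, the median absolute log2 difference over the 50 genes was 0.15 for MEF, 0.21 for carbidopa, 0.16 for LY-364947 and 0.18 for CHIR-99021, and single members differed by up to 1.11. Over all genes the carbidopa replicates differed most, with a chi-square per degree of freedom of 36.4 against 4.35 to 9.38 in the other pairs. With LY-364947, 40 of the 50 genes were lower in replicate 2 than in replicate 1, while 49.6% of all genes were.

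**Figure D1:**
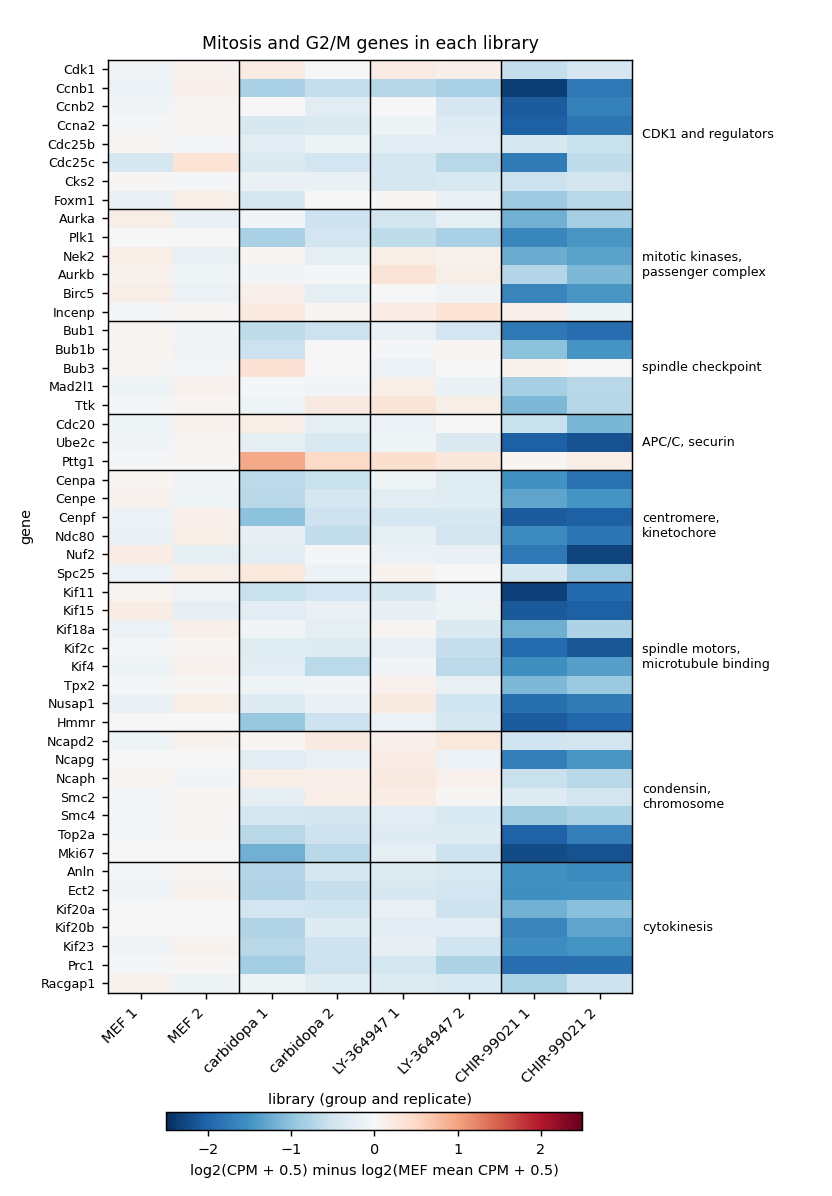
Heat map of the 50 genes (rows, grouped by role) in the 8 libraries (columns), coloured by log2(CPM + 0.5) minus log2 of the MEF mean CPM + 0.5, with blue below and red above the MEF mean. The CHIR-99021 columns are blue in nearly every row, with Bub3, Incenp and Pttg1 close to white, and Pttg1 is red with carbidopa.

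Promoters were to be shown for genes picked by name, Cdk1, Ccnb1, Ccnb2, Ccna2, Plk1 and Bub3, and Ccna2 had no window. The other 5 carry, in different combinations, the letters associated with late cell cycle transcription. With CHIR-99021 Ccnb1, Ccnb2 and Plk1 fell strongly and Cdk1 fell little, and Bub3 did not pass the test in any comparison. Sequences are RefSeq's, from 250 bases before to 50 bases after the start of the gene in GRCm38.p6, written 5′ to 3′ on the gene's strand. Capitals mark the CHR letters TTTGAA and the CCAAT letters on either strand, so TTCAAA and ATTGG are the same motifs read on the other strand.
Cdk1 (chr10:69352863-69353162, minus strand): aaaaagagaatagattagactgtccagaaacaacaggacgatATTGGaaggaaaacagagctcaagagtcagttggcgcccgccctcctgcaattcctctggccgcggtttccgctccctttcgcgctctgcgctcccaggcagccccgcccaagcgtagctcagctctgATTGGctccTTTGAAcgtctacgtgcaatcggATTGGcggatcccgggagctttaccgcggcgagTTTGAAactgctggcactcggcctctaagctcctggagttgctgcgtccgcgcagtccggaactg
Ccnb1 (chr13:100786437-100786736, minus strand): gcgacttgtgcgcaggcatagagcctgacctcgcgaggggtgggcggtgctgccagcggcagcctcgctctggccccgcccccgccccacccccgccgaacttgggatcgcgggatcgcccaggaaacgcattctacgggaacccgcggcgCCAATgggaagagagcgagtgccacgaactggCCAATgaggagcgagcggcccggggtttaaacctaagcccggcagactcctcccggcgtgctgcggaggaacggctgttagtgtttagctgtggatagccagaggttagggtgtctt
Ccnb2 (chr9:70421505-70421804, minus strand): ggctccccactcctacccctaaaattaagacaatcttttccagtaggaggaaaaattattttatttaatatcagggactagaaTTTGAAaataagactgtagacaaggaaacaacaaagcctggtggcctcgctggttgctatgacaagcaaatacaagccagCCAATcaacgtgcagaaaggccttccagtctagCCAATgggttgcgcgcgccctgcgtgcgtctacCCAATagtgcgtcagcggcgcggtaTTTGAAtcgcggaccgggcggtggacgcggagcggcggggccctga
Plk1 (chr7:122159185-122159484, plus strand): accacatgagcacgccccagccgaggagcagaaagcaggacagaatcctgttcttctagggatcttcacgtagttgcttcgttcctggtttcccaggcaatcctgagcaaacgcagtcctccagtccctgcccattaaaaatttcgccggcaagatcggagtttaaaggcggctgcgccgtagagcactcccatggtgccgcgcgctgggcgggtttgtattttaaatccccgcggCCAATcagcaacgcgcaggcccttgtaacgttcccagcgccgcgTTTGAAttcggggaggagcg
Bub3 (chr7:131560120-131560419, plus strand): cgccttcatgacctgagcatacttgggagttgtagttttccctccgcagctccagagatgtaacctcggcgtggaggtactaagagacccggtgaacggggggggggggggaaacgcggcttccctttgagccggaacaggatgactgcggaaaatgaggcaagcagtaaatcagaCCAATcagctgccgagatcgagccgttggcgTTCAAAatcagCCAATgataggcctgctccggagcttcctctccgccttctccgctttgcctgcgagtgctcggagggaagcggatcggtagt
The genes without a window were Aurkb, Ccna2, Cdc25c, Foxm1, Incenp, Kif20a, Smc4 and Tpx2.

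Windows were found for 42 of the 50 genes, 45 windows in all, because some genes have more than 1 start. The CHR letters TTTGAA stood in 71.1% of these windows, against 12.1% of the 13704 windows of genes tested and 17.9% of all 32851 windows. The variant TTCGAA was found in 8.89%, 1.99% and 1.56% of the same 3 sets. CCAAT stood in 73.3% of the windows of the 50 genes, against 37.5% and 37.4%. Either form of the CHR together with a CCAAT was present in 64.4%, against 5.79% and 7.52%. Both strands were searched, neighbouring matches can share their end bases, and a match describes the letters of this window alone. Forms of the CHR other than TTTGAA and TTCGAA were not searched.

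**Figure D2:**
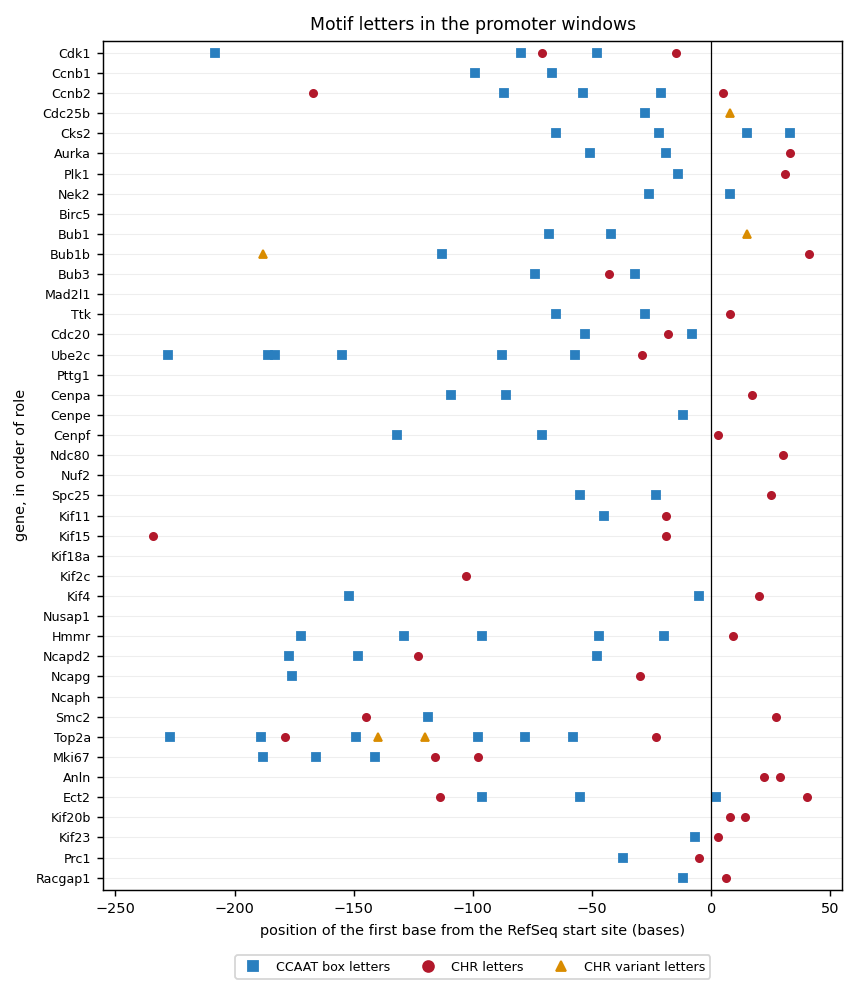
Positions of the first base of each motif in the first listed promoter window of the 42 genes with a window, in bases from the RefSeq start site, with blue squares for CCAAT, red circles for the CHR letters and orange triangles for the CHR variant. CCAAT letters lie mostly upstream of the start and CHR letters mostly near it, and 7 genes, Pttg1 among them, carry none of these.

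Falls were seen with and without these letters. The 31 genes with TTTGAA or TTCGAA had a median log2 fold change of -1.70 with CHIR-99021, and 29 of them fell. The 11 genes with a window but neither of these strings had a median of -1.47, and 10 of them fell. Of all genes tested, 20.1% fell with CHIR-99021. Ccnb1, whose window holds 2 CCAAT and neither CHR string searched, fell 4.82-fold with CHIR-99021. Bub3, whose window holds TTTGAA on the other strand and 2 CCAAT, did not pass the test. With carbidopa 13 of the 31 and 2 of the 11 fell, where 19.7% of all genes fell, with medians of -0.36 and -0.16. These counts were not compared by a test.

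Among CDK1 and its regulators, the cyclins had larger falls than their kinase. With CHIR-99021, 7 of the 8 fell, where 20.1% of all genes fell, with a median of -1.43. The 3 mitotic cyclins had the largest falls of those that passed the test. Cyclin B1 (Ccnb1), the partner whose build-up starts mitosis, was measured at 9.73 and 12 CPM in the MEF libraries, 6.02 and 7.04 under carbidopa, 6.39 and 5.96 under LY-364947 and 1.73 and 2.78 under CHIR-99021. The MEF libraries were highest and the CHIR-99021 libraries lowest, with no overlap between any treated group and MEF. Ccnb1 changed on the log2 scale by -2.27 ± 0.24 (SE, adjusted p = 4.55e-05) with CHIR-99021, -0.74 ± 0.21 (SE, adjusted p = 0.0208) with carbidopa and -0.82 ± 0.22 (SE, adjusted p = 0.0153) with LY-364947. The fall with LY-364947 was the largest among the members called there, and 18.9% of the 75-base words in Ccnb1's exons also occur in pseudogenes, so part of its reads may have been assigned elsewhere.

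Cyclin B2 (Ccnb2) stood at 4.98 and 5.54 CPM in the MEF libraries, 5.32 and 4.29 under carbidopa, 5.27 and 3.78 under LY-364947 and 0.863 and 1.28 under CHIR-99021. Its carbidopa and LY-364947 libraries overlapped the MEF pair, and the CHIR-99021 libraries lay far under it. The change with CHIR-99021 was -2.29 ± 0.30 (SE, adjusted p = 0.00018), against -0.13 (adjusted p = 0.693) with carbidopa and -0.22 (adjusted p = 0.543) with LY-364947. Cyclin A2 (Ccna2, chr3:36564865-36572150), which acts in S phase and G2, was at 22 and 23.7 CPM in the MEF libraries, 17.1 and 17.7 under carbidopa, 20.8 and 18.1 under LY-364947 and 5.18 and 6.09 under CHIR-99021. It fell by 4.05-fold with CHIR-99021, -2.02 ± 0.15 (SE, adjusted p = 3.30e-06) on the log2 scale, and by less with carbidopa, -0.39 ± 0.13 (SE, adjusted p = 0.0423). The carbidopa call held in 3 of 10 alternative settings and did not pass in DESeq2. Without strand-specific counting, which the sources do not state, the 12.5% of its exon bases that lie under the opposite-strand gene Exosc9 could carry reads of either.

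Cdk1 itself, the kinase those cyclins activate, moved much less. Its level was 15 and 17.1 CPM in the MEF libraries, 18.7 and 15.9 under carbidopa, 18.7 and 17.6 under LY-364947 and 10.5 and 11.9 under CHIR-99021. Only the CHIR-99021 libraries lay below the MEF pair, and the change was -0.52 ± 0.15 (SE, adjusted p = 0.0193), against 0.10 (adjusted p = 0.597) with carbidopa and 0.17 (adjusted p = 0.402) with LY-364947. The phosphatase Cdc25b, which removes the inhibitory phosphates from CDK1, was at 12.6 and 12 CPM in the MEF libraries, 10.2 and 11.2 under carbidopa, 10.1 and 10 under LY-364947 and 9.2 and 8.18 under CHIR-99021, and changed on the log2 scale by -0.50 ± 0.15 (SE, adjusted p = 0.0234) with CHIR-99021. Cks2, a small CDK-binding subunit, fell with CHIR-99021, -0.53 (adjusted p = 0.0133), and with LY-364947, -0.42 (adjusted p = 0.0415). The call with LY-364947 held in 3 of 10 alternative settings and did not pass in DESeq2, and 26.9% of its 75-base words are shared with other genes.

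Foxm1, the transcription factor that drives many G2 and M genes, was measured at 11.8 and 14.6 CPM in the MEF libraries, 9.6 and 13.1 under carbidopa, 13.6 and 11.5 under LY-364947 and 6.79 and 7.94 under CHIR-99021. It fell with CHIR-99021 with a log2 change of -0.85 ± 0.20 (SE, adjusted p = 0.00792), and its carbidopa and LY-364947 libraries overlapped the MEF pair. Cdc25c, the other G2/M phosphatase in the set, was the lowest of the 50 at 0.743 and 1.61 CPM in the MEF libraries, 0.8 and 0.699 under carbidopa, 0.729 and 0.532 under LY-364947 and 0 and 0.58 under CHIR-99021, from 0 to 25 counts a library. Its log2 fold change with CHIR-99021, -2.02, had an adjusted p of 0.08, and it passed the test in none of the 6 comparisons.

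**Figure D3:**
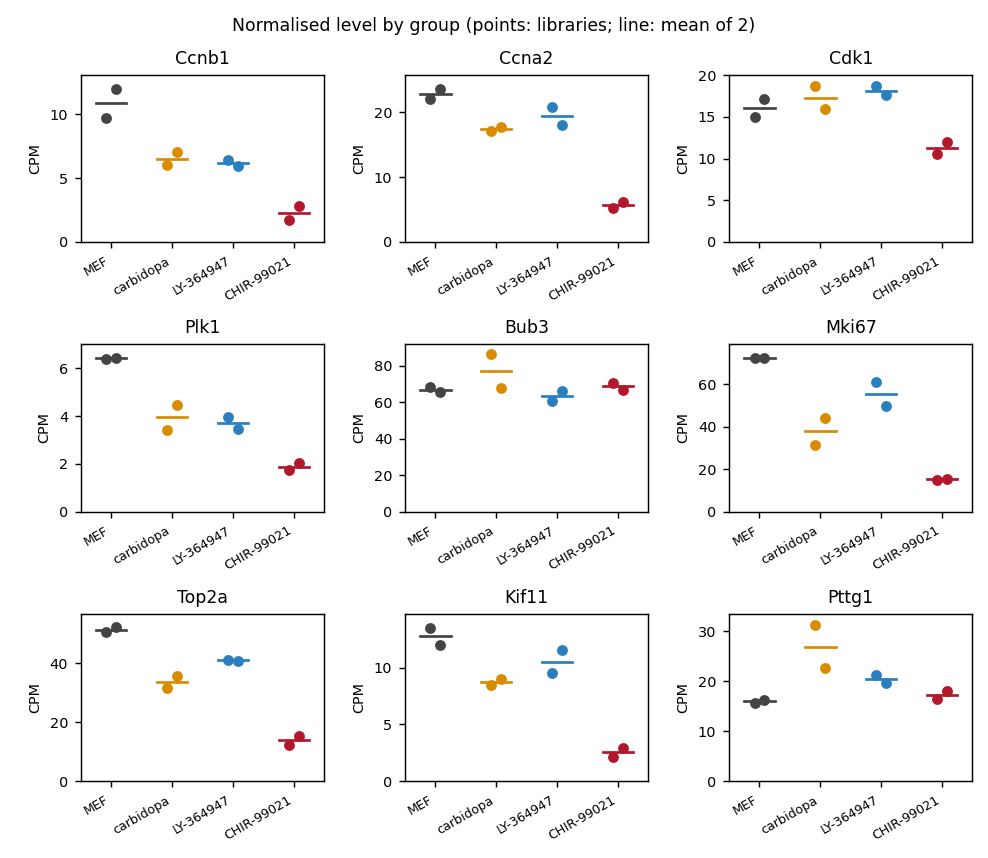
Level in CPM (vertical axes, each from 0) of 9 genes in the 4 groups, with a point for each library and a line for the mean of 2. The CHIR-99021 points lie lowest for Ccnb1, Ccna2, Cdk1, Plk1, Mki67, Top2a and Kif11, while Bub3 stays between 60.7 and 86.2 CPM in all 8 libraries and Pttg1 is highest with carbidopa.

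Of the 6 mitotic kinases and chromosomal passenger proteins, 5 fell with CHIR-99021, where 20.1% of all genes fell. The scaffold Incenp was the exception. Polo-like kinase 1 (Plk1), which acts from mitotic entry to cytokinesis, was at 6.39 and 6.45 CPM in the MEF libraries, 3.43 and 4.47 under carbidopa, 3.98 and 3.46 under LY-364947 and 1.73 and 2.03 under CHIR-99021. All 6 treated libraries lay below both MEF libraries. Plk1 fell with each compound with a log2 change of -1.77 ± 0.24 (SE, adjusted p = 0.000224) with CHIR-99021, -0.70 ± 0.21 (SE, adjusted p = 0.0268) with carbidopa and -0.79 ± 0.22 (SE, adjusted p = 0.0194) with LY-364947. The calls with carbidopa and with LY-364947 each held in 5 of 10 alternative settings and did not pass in DESeq2. These 3 comparisons share the MEF libraries.

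Aurora A (Aurka), the kinase of the centrosome and spindle poles, stood at 6.17 and 4.9 CPM in the MEF libraries, 5.22 and 3.73 under carbidopa, 3.87 and 4.58 under LY-364947 and 2.13 and 2.9 under CHIR-99021. The carbidopa pair overlapped MEF, the LY-364947 pair lay just below it and the CHIR-99021 pair lowest, with a change of -1.13 ± 0.27 (SE, adjusted p = 0.00741). Aurora B (Aurkb), the enzyme of the passenger complex, was at 4.46 and 3.8 CPM in the MEF libraries, 3.9 and 3.96 under carbidopa, 5.33 and 4.63 under LY-364947 and 2.3 and 1.62 under CHIR-99021, with a change of -1.07 ± 0.25 (SE, adjusted p = 0.00714) with CHIR-99021. Survivin (Birc5), a passenger subunit at the centromere, was at 8.17 and 6.58 CPM in the MEF libraries, 8.04 and 6.2 under carbidopa, 7.46 and 6.92 under LY-364947 and 2.01 and 2.38 under CHIR-99021, and changed on the log2 scale by -1.74 ± 0.23 (SE, adjusted p = 0.000207). Both had CHIR-99021 libraries under all the others and no difference that passed the test with the other compounds.

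Incenp, which holds the passenger complex together, behaved unlike its partners. Its level was 14 and 14.5 CPM in the MEF libraries, 17 and 14.8 under carbidopa, 16.2 and 18.1 under LY-364947 and 15.6 and 13 under CHIR-99021, and the MEF and CHIR-99021 libraries overlapped. The log2 fold change with CHIR-99021 was 0.01 (95% interval -0.32 to 0.34, adjusted p = 0.972), an interval well within 2-fold either way. Nek2, a centrosomal kinase, was lowered by CHIR-99021 with a log2 fold change of -1.64 (adjusted p = 0.00139).

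Among the 5 spindle checkpoint genes, 4 fell with CHIR-99021, where 20.1% of all genes fell, and Bub3 did not. Bub1b, which encodes the checkpoint protein BUBR1, was at 6.76 and 6 CPM in the MEF libraries, 4.23 and 6.43 under carbidopa, 6.11 and 6.7 under LY-364947 and 2.88 and 1.97 under CHIR-99021. The CHIR-99021 libraries were lowest, and the changes were -1.39 ± 0.27 (SE, adjusted p = 0.00257) with CHIR-99021 and -0.26 (adjusted p = 0.437) with carbidopa. Mad2l1, which binds and restrains CDC20, was at 22.7 and 26.6 CPM in the MEF libraries, 24 and 23.4 under carbidopa, 27.4 and 21.8 under LY-364947 and 13.6 and 15.1 under CHIR-99021, and changed on the log2 scale by -0.78 ± 0.15 (SE, adjusted p = 0.00225) with CHIR-99021. Bub1, the kinase of this pathway, fell with a log2 change of -2.04 (adjusted p = 2.42e-05) with CHIR-99021 and -0.62 (adjusted p = 0.0199) with carbidopa, and Ttk fell with -1.12 (adjusted p = 0.013) with CHIR-99021.

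Bub3, the WD-repeat partner of BUB1 and BUBR1, was among the most abundant genes of the set. It stood at 68.1 and 65.7 CPM in the MEF libraries, 86.2 and 67.8 under carbidopa, 60.7 and 66.3 under LY-364947 and 70.6 and 66.6 under CHIR-99021, with CHIR-99021 and MEF overlapping. Its change was 0.04 (95% interval -0.24 to 0.32, adjusted p = 0.841) with CHIR-99021, 0.20 (95% interval -0.07 to 0.48, adjusted p = 0.223) with carbidopa and -0.07 (95% interval -0.35 to 0.20, adjusted p = 0.699) with LY-364947. Per kilobase of exon it was at 9.55 CPM in MEFs, behind Cks2 at 18.8 and Smc4 at 11.6. With CHIR-99021 the same 3 genes stood at 9.79, 13 and 6.49 CPM per kilobase.

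Of the APC/C genes, the activator and the ubiquitin-conjugating enzyme fell with CHIR-99021, and the substrate securin did not pass that test. Cdc20, the activator, was at 4.46 and 5.22 CPM in the MEF libraries, 5.5 and 4.05 under carbidopa, 4.32 and 4.84 under LY-364947 and 3.11 and 1.91 under CHIR-99021, and changed on the log2 scale by -0.95 ± 0.28 (SE, adjusted p = 0.0218) with CHIR-99021. Ube2c, the enzyme that starts ubiquitin chains for the APC/C, was at 8.69 and 9.61 CPM in the MEF libraries, 7.67 and 6.9 under carbidopa, 8.47 and 7.02 under LY-364947 and 1.84 and 1.62 under CHIR-99021. It had one of the largest falls of the set with CHIR-99021, 5.27-fold and -2.40 ± 0.21 (SE, adjusted p = 1.11e-05) on the log2 scale, and 22.8% of its exon bases lie under the opposite-strand gene Tnnc2.

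Securin (Pttg1, chr11:43420250-43426251), which keeps separase inactive until anaphase, was the 1 gene of the 50 that rose in any comparison with MEF. Its level was 15.6 and 16.3 CPM in the MEF libraries, 31.1 and 22.6 under carbidopa, 21.1 and 19.6 under LY-364947 and 16.5 and 18 under CHIR-99021. Both carbidopa libraries lay above all others, and the LY-364947 and CHIR-99021 libraries lay between them and MEF. Pttg1 rose by 1.68-fold with carbidopa, 0.75 ± 0.16 (SE, adjusted p = 0.00477), and changed on the log2 scale by 0.35 (95% interval -0.01 to 0.71, adjusted p = 0.132) with LY-364947 and 0.11 (95% interval -0.26 to 0.47, adjusted p = 0.638) with CHIR-99021.

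All 6 centromere and kinetochore genes fell with CHIR-99021, where 20.1% of all genes fell, with a median of -2.03. With carbidopa 3 of them (50%) fell, where 19.7% of all genes fell. Cenpa, the histone H3 variant that marks centromeres, was at 5.57 and 5.09 CPM in the MEF libraries, 3.2 and 3.45 under carbidopa, 4.88 and 4.2 under LY-364947 and 1.55 and 1.1 under CHIR-99021. All treated libraries lay below the MEF pair, with changes of -0.68 ± 0.22 (SE, adjusted p = 0.0347) with carbidopa, -0.23 (adjusted p = 0.467) with LY-364947 and -2.00 ± 0.25 (SE, adjusted p = 0.000153) with CHIR-99021. The Cenpa call with carbidopa did not pass in DESeq2 or with only the 2 groups compared. Ndc80, which binds microtubules at the outer kinetochore, was at 4.61 and 5.8 CPM in the MEF libraries, 4.42 and 3.22 under carbidopa, 4.37 and 3.67 under LY-364947 and 1.38 and 1.1 under CHIR-99021. It fell with CHIR-99021 with a log2 change of -2.07 ± 0.29 (SE, adjusted p = 0.000277), and its change with carbidopa, -0.45 (adjusted p = 0.17), did not pass the test. Its complex partners differed in size: Nuf2 fell with a log2 change of -2.37 (adjusted p = 8.87e-05) and Spc25 with -0.63 (adjusted p = 0.0347). Cenpe, a kinetochore motor, and Cenpf, a large kinetochore protein, fell with CHIR-99021, -1.47 (adjusted p = 7.06e-05) and -2.25 (adjusted p = 3.22e-05), and with carbidopa, -0.58 (adjusted p = 0.0154) and -0.79 (adjusted p = 0.0117).

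The spindle motors and microtubule-binding proteins had the lowest median of the 8 role groups. All 8 fell with CHIR-99021, each past 2-fold, with a median of -2.11, a 4.31-fold decrease, where 20.1% of all genes fell. Kif11, the motor that pushes the spindle poles apart, was at 13.5 and 12.1 CPM in the MEF libraries, 8.51 and 9.04 under carbidopa, 9.53 and 11.5 under LY-364947 and 2.13 and 2.96 under CHIR-99021. The CHIR-99021 libraries were far below the other 6, and the changes were -2.33 ± 0.21 (SE, adjusted p = 1.26e-05) with CHIR-99021, -0.54 ± 0.18 (SE, adjusted p = 0.0375) with carbidopa and -0.28 (adjusted p = 0.28) with LY-364947. The Kif11 call with carbidopa did not pass in DESeq2 or with only the 2 groups compared. Kif2c (chr4:117159639-117182639), which removes tubulin from microtubule ends at the centromere, had the largest fall of the set with CHIR-99021. It was at 4.09 and 4.38 CPM in the MEF libraries, 3.34 and 3.26 under carbidopa, 3.64 and 2.66 under LY-364947 and 0.748 and 0.58 under CHIR-99021, which is as few as 10 counts in a library, and fell by 6.33-fold, -2.66 ± 0.30 (SE, adjusted p = 7.15e-05). It was also the gene with the largest difference of CHIR-99021 from carbidopa, -2.30 (adjusted p = 0.000859). Kif15, a motor that acts beside KIF11, had the largest difference from LY-364947, -2.23 (adjusted p = 0.000231), and was at 8.32 and 6.25 CPM in the MEF libraries, 5.97 and 6.39 under carbidopa, 6.22 and 6.6 under LY-364947 and 1.32 and 1.39 under CHIR-99021. Changes of the others with CHIR-99021 ran from -2.41 for Kif15 to -1.05 for Tpx2, which activates Aurora A on the spindle. Only Kif11 and Hmmr, a spindle-binding protein, fell with carbidopa among the 8 (25%), where 19.7% of all genes fell. The log2 change of Hmmr was -0.75 (adjusted p = 0.01).

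Of the 7 condensin and chromosome structure genes, 6 fell with CHIR-99021, where 20.1% of all genes fell, with a median of -0.84. Ki-67 (Mki67, chr7:135689784-135716361), which coats mitotic chromosomes and serves as a marker of cycling cells, was at 72.3 and 72.2 CPM in the MEF libraries, 31.3 and 44.2 under carbidopa, 60.9 and 49.6 under LY-364947 and 14.8 and 15.5 under CHIR-99021. No 2 groups overlapped. It fell by 4.76-fold with CHIR-99021, -2.25 ± 0.17 (SE, adjusted p = 3.99e-06), and had the largest fall of the set with carbidopa, -0.94 ± 0.16 (SE, adjusted p = 0.00121), while its change with LY-364947 was -0.39 (adjusted p = 0.0931). DNA topoisomerase II alpha (Top2a), which untangles sister chromatids, was at 50.6 and 52.1 CPM in the MEF libraries, 31.5 and 35.8 under carbidopa, 41.1 and 40.8 under LY-364947 and 12.3 and 15.3 under CHIR-99021. It likewise fell with CHIR-99021, -1.90 ± 0.13 (SE, adjusted p = 2.10e-06), and with carbidopa, -0.61 ± 0.12 (SE, adjusted p = 0.00349), and changed on the log2 scale by -0.33 (adjusted p = 0.0705) with LY-364947.

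Apart from Ncapg, the condensin subunits changed much less with CHIR-99021 than Mki67 and Top2a. Smc4, an ATPase arm of condensin, was at 59.4 and 61.8 CPM in the MEF libraries, 44.4 and 43.8 under carbidopa, 49.7 and 46.1 under LY-364947 and 32.6 and 35 under CHIR-99021. Every treated library was below both MEF libraries, and Smc4 fell with a log2 change of -0.84 (adjusted p = 0.000108) with CHIR-99021, -0.46 (adjusted p = 0.00536) with carbidopa and -0.34 (adjusted p = 0.0268) with LY-364947. The Smc4 call with LY-364947 held in 5 of 10 alternative settings. Smc2, the partner of Smc4, changed on the log2 scale by -0.39 (adjusted p = 0.0522) with CHIR-99021 and passed the test only against LY-364947, -0.50 (adjusted p = 0.0423). Of the condensin I subunits, Ncapg fell with a log2 change of -1.75 (adjusted p = 9.39e-05), Ncaph with -0.67 (adjusted p = 0.00751) and Ncapd2 with -0.50 (adjusted p = 0.0195).

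Of the 7 cytokinesis genes, 6 (85.7%) fell with carbidopa, where 19.7% of all genes fell, with a median of -0.60. None of these 6 passed the test without MEF replicate 2, and Kif20a, Kif20b and Kif23 did not pass in DESeq2. All 7 fell with CHIR-99021, where 20.1% of all genes fell, with a median of -1.60. Anillin (Anln), which scaffolds the contractile ring, was at 28 and 29.5 CPM in the MEF libraries, 17.1 and 21 under carbidopa, 22.7 and 21.9 under LY-364947 and 9.78 and 9.16 under CHIR-99021. No group overlapped the MEF libraries, and the changes were -1.60 ± 0.14 (SE, adjusted p = 1.12e-05) with CHIR-99021, -0.60 ± 0.13 (SE, adjusted p = 0.00578) with carbidopa and -0.37 (adjusted p = 0.0576) with LY-364947. Kif23, the motor of the centralspindlin complex, was at 7.58 and 8.57 CPM in the MEF libraries, 4.8 and 5.5 under carbidopa, 6.95 and 5.53 under LY-364947 and 2.42 and 2.55 under CHIR-99021, and fell with CHIR-99021, -1.70 ± 0.21 (SE, adjusted p = 0.000137), and carbidopa, -0.65 ± 0.19 (SE, adjusted p = 0.0233). Its partner Racgap1 fell with CHIR-99021, -0.67 (adjusted p = 0.00729), and was the 1 cytokinesis gene that did not pass the test with carbidopa, -0.22 (adjusted p = 0.291). Prc1, which bundles the central spindle, was 1 of the 5 genes that fell with LY-364947. It was at 21.2 and 21.9 CPM in the MEF libraries, 11.6 and 14.7 under carbidopa, 15.6 and 12.4 under LY-364947 and 5.41 and 5.45 under CHIR-99021, with changes of -1.99 (adjusted p = 1.33e-05) with CHIR-99021, -0.71 (adjusted p = 0.00695) with carbidopa and -0.62 (adjusted p = 0.0158) with LY-364947. The exchange factor Ect2 and the kinesins Kif20a and Kif20b fell with CHIR-99021 and with carbidopa, Ect2 with a log2 change of -0.71 (adjusted p = 0.00643) with carbidopa and -1.64 (adjusted p = 4.11e-05) with CHIR-99021. Of the exon bases of Kif20a, 29.3% lie under the opposite-strand gene Cdc23.

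**Figure D4:**
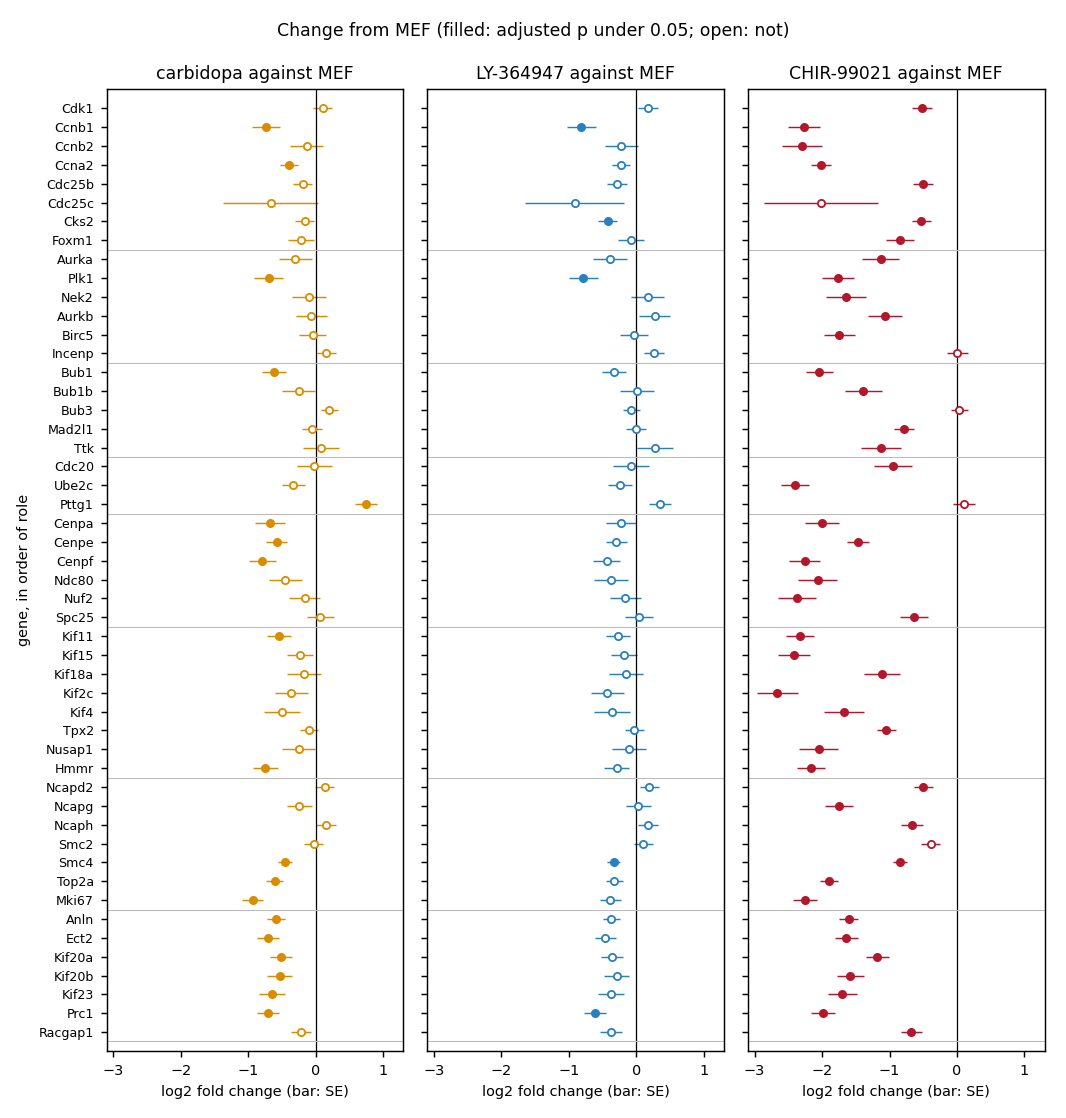
Log2 fold change against MEF (horizontal axis) of the 50 genes in order of role (vertical axis, horizontal lines between groups), with a bar for the SE and a filled point where the adjusted p was under 0.05. With CHIR-99021, 45 points are filled and lie left of 0, from -0.50 to -2.66. With carbidopa 19 are filled, of which Pttg1 alone lies right of 0, and with LY-364947 5 are filled.

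Compared directly, CHIR-99021 stood below both other compounds. Against carbidopa 41 of the 50 genes were lower and none higher, where 8.08% of all genes were lower and 6.62% higher, with a median of -1.06. Against LY-364947 40 were lower and none higher, where 7.69% of all genes were lower and 6.45% higher, with a median of -1.30. In edgeR none was higher at an unadjusted p under 0.05 in either comparison, nor was any in DESeq2. These comparisons share the CHIR-99021 libraries. Pttg1, which did not differ detectably between CHIR-99021 and MEF, was lower with CHIR-99021 than with carbidopa, -0.64 (adjusted p = 0.023). The Ccnb1 difference was -1.53 (adjusted p = 0.00264) from carbidopa and -1.45 (adjusted p = 0.00385) from LY-364947, and that of Mki67 -1.32 (adjusted p = 0.00079) and -1.87 (adjusted p = 0.000113). Cdc25b, Cdc25c, Cks2, Aurka, Incenp, Bub3 and Racgap1 passed neither test.

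Carbidopa and LY-364947 were not told apart in any of the 50 genes. None passed the test in edgeR, 5 had an unadjusted p under 0.05, none passed in DESeq2, and 0.0132% of all genes were higher and 0% lower with LY-364947 than with carbidopa. The median log2 difference, LY-364947 minus carbidopa, was 0.10, and it was above 0 in 37 genes. The largest was that of Mki67, 0.55 (95% interval 0.20 to 0.90, adjusted p = 0.519). In 49 of the 50 genes the 95% interval of the difference lay within 2-fold either way, the exception being the sparse Cdc25c, so differences smaller than that remain possible. The difference between the counts of 18 and 5 falls against MEF was not itself tested.

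Libraries decided some of these counts. Leaving out 1 library at a time, the falls with CHIR-99021 against MEF numbered 36 to 40, while those with carbidopa dropped to 8 without MEF replicate 1, 3 without MEF replicate 2 and 11 without carbidopa replicate 1. Those with LY-364947 were 1 without MEF replicate 1, 0 without MEF replicate 2, 1 without LY-364947 replicate 1 and 0 without LY-364947 replicate 2. CHIR-99021 against carbidopa gave 25 falls when replicate 1 of CHIR-99021 was dropped and 26 when replicate 2 was. Calls between LY-364947 and carbidopa also appeared in the set without carbidopa replicate 2. Calls over all genes tested multiplied in the same setting, so this shift was not particular to the set. The set's median log2 difference, LY-364947 minus carbidopa, ran from 0.0299 to 0.207 with a library left out. The rise of Pttg1 and the falls of Mki67 and Top2a with carbidopa passed in all 10 alternatives, and 32 genes fell with CHIR-99021 against MEF in all 10.

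Other genes of the cell cycle did not all follow the 50. A further 68 mitotic genes, all tested, gave 34 falls (50%) and 9 rises (13.2%) with CHIR-99021, where 20.1% of all genes fell and 18.7% rose, with a median of -0.57. With carbidopa they gave 8 falls (11.8%) and 12 rises (17.6%), where 19.7% of all genes fell and 18% rose, with a median of -0.04. With LY-364947 they gave 2 falls (2.94%) and 9 rises (13.2%), where 17.2% of all genes fell and 13.7% rose. Pbk, a mitotic kinase, fell with a log2 change of -2.53 (adjusted p = 2.71e-05) with CHIR-99021. Aspm, a spindle pole protein, fell with all compounds, -1.93 (adjusted p = 8.20e-05) with CHIR-99021, -1.15 (adjusted p = 0.00165) with carbidopa and -0.63 (adjusted p = 0.0392) with LY-364947.

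The 2 kinases that inhibit CDK1 rose in every treatment. Wee1, which phosphorylates CDK1 and holds cells in G2, was at 23.9 and 27.8 CPM in the MEF libraries, 142 and 131 under carbidopa, 139.9 and 128 under LY-364947 and 149 and 162 under CHIR-99021. All 6 treated libraries stood far above both MEF libraries, with changes of 2.58 ± 0.12 (SE, adjusted p = 1.09e-07) with CHIR-99021, 2.4 ± 0.12 (SE, adjusted p = 1.90e-07) with carbidopa and 2.37 ± 0.12 (SE, adjusted p = 2.11e-07) with LY-364947. Pkmyt1, the membrane-bound kinase of the same kind, was at 1.93 and 2.26 CPM in the MEF libraries, 6.35 and 6.2 under carbidopa, 5.16 and 5.21 under LY-364947 and 3.8 and 3.65 under CHIR-99021, with changes of 0.82 (adjusted p = 0.0129), 1.58 (adjusted p = 0.000201) and 1.30 (adjusted p = 0.000896) in the same order. Zwint, a kinetochore protein, rose on the log2 scale by 0.64 (adjusted p = 0.000837) with CHIR-99021, 0.76 (adjusted p = 0.000273) with carbidopa and 0.59 (adjusted p = 0.00145) with LY-364947. Gtse1, a microtubule-binding protein of G2, rose on the log2 scale by 0.82 (adjusted p = 0.000442), 0.67 (adjusted p = 0.00164) and 0.61 (adjusted p = 0.00334) in that order. Ckap2, a spindle protein, rose with carbidopa, 0.82 (adjusted p = 0.000682), and LY-364947, 0.84 (adjusted p = 0.000666), and changed on the log2 scale by 0.12 (adjusted p = 0.5) with CHIR-99021.

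Of 48 S phase genes, 14 (29.2%) rose and 1 (2.08%) fell with carbidopa, where 18% of all genes rose and 19.7% fell. Their median was 0.33. With LY-364947 10 (20.8%) rose and 1 (2.08%) fell, where 13.7% of all genes rose and 17.2% fell, with a median of 0.28. With CHIR-99021 8 (16.7%) rose and 6 (12.5%) fell, where 18.7% of all genes rose and 20.1% fell, with a median of -0.12. Mcm3, a subunit of the replicative helicase, was at 21.1 and 20.5 CPM in the MEF libraries, 41 and 36.1 under carbidopa, 34.9 and 37.3 under LY-364947 and 31.4 and 31.9 under CHIR-99021, and rose on the log2 scale by 0.89 (adjusted p = 0.000166) with carbidopa, 0.80 (adjusted p = 0.000381) with LY-364947 and 0.61 (adjusted p = 0.00208) with CHIR-99021. Rfc3, of the clamp loader, rose on the log2 scale by 1.12 (adjusted p = 0.000404), 0.94 (adjusted p = 0.00153) and 0.68 (adjusted p = 0.0088) in the same order. The gene called lower with carbidopa and LY-364947 was Rrm2, the small subunit of ribonucleotide reductase, at 59 and 51.1 CPM in the MEF libraries, 30.8 and 32.5 under carbidopa, 40.8 and 31.8 under LY-364947 and 20.7 and 21.2 under CHIR-99021. It also fell with CHIR-99021 with a log2 change of -1.39 ± 0.14 (SE, adjusted p = 2.86e-05), as did cyclin E2 (Ccne2), with -1.29 (adjusted p = 0.000573).

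Among 12 D cyclins and CDK inhibitors, 3 (25%) rose and 2 (16.7%) fell with carbidopa, where 18% of all genes rose and 19.7% fell. With LY-364947 1 (8.33%) rose and none fell, where 13.7% of all genes rose and 17.2% fell. With CHIR-99021 1 (8.33%) rose and 3 (25%) fell, where 18.7% and 20.1% did. Cdkn2d, the INK4 inhibitor p19, rose with carbidopa, 1.22 (adjusted p = 0.000809), and LY-364947, 0.88 (adjusted p = 0.00691). Cyclin D2 (Ccnd2) fell with carbidopa, -0.83 (adjusted p = 0.00228), and CHIR-99021, -0.82 (adjusted p = 0.00226). Cdkn1c, the inhibitor p57, fell with CHIR-99021, -1.04 (adjusted p = 0.000354), where Cdkn2b, the inhibitor p15, rose, 0.57 (adjusted p = 0.0179). Cdkn1a, the inhibitor p21, was at 732 and 766 CPM in the MEF libraries, 708 and 591 under carbidopa, 621 and 584 under LY-364947 and 847 and 873 under CHIR-99021, and passed the test with none of the 3.

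Of 22 DREAM and E2F regulators, 2 (9.09%) rose and 7 (31.8%) fell with CHIR-99021, where 18.7% of all genes rose and 20.1% fell. With carbidopa 1 (4.55%) rose and 3 (13.6%) fell, where 18% and 19.7% of all genes did. With LY-364947 1 (4.55%) rose and 1 (4.55%) fell, where 13.7% and 17.2% did. E2f8, a repressor E2F, was at 8.92 and 8.45 CPM in the MEF libraries, 20.3 and 24.9 under carbidopa, 24.7 and 21.8 under LY-364947 and 21.1 and 22.4 under CHIR-99021, and rose with every compound, on the log2 scale by 1.33 (adjusted p = 7.22e-05) with CHIR-99021, 1.38 (adjusted p = 5.36e-05) with carbidopa and 1.42 (adjusted p = 4.67e-05) with LY-364947. Its close relative E2f7 fell with CHIR-99021, -1.17 (adjusted p = 0.00282). The retinoblastoma gene Rb1 fell with every compound with a log2 change of -0.58 (adjusted p = 0.00716), -0.59 (adjusted p = 0.00682) and -0.44 (adjusted p = 0.0313) in that order. Mybl2, which encodes B-MYB and acts with Foxm1 on G2/M promoters, was at 2.97 and 3.48 CPM in the MEF libraries, 2.45 and 2.98 under carbidopa, 3.14 and 2.55 under LY-364947 and 2.01 and 1.39 under CHIR-99021, and fell with CHIR-99021, -0.92 (adjusted p = 0.0283).

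**Figure D5:**
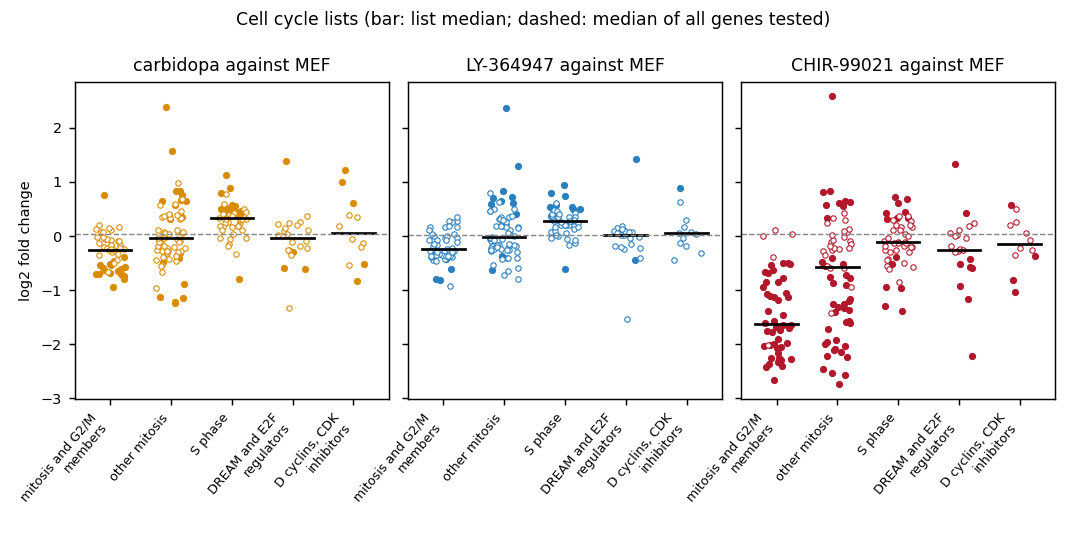
Log2 fold change against MEF (vertical axis) of the genes tested in 5 cell cycle lists (horizontal axis), with filled points where the adjusted p was under 0.05, a black bar at each list's median and a dashed line at the median of all genes tested. With CHIR-99021 the 50 genes lie lowest, with a median of -1.62 against -0.57 for the other mitotic genes and -0.12 for S phase, and the point above all others in each panel is Wee1.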

How the data were processed

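The authors sequenced mRNA libraries of 8 samples, mapped the reads to mm10 with STAR 2.4.2a and counted them on genes with featureCounts; DESeq2 and bcl2fastq are also named in the submitters' processing notes. The deposited values are raw counts of reads per gene, whole numbers without normalization. The annotation release and the strand setting are not given in the sources used here. Groups and replicate numbers were taken from the sample labels.

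Counts were tested in R 4.3.3 with edgeR 4.0.16 (filterByExpr, TMM normalization, quasi-likelihood test, all 8 libraries, group as the only term, 4 residual degrees of freedom, Benjamini-Hochberg adjustment over 15154 of 50578 genes). The coefficient of biological variation was 11%. Alternatives were DESeq2 1.42.0, RLE size factors, other filters, only the 2 groups compared, a replicate block and each library left out. No pair of replicates agreed within sampling noise (chi-square per degree of freedom 4.35 to 36.4). Exon lengths and opposite-strand overlaps are from GENCODE M21 (99.6% of identifiers matched), and promoters from RefSeq for GRCm38.p6, the assembly also called mm10. Intervals are at 95%.

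The members and the gene lists were chosen with earlier results of these data known. Full values are given for 24 members picked by role, for those called against the majority, for the largest rise and fall in each comparison and for those called in none. Of each other list, the 3 genes with the smallest p against MEF and up to 4 called against most of the list are named. Sgo1 and Sgo2a are listed under their older symbols Sgol1 and Sgol2a.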

Additional observations from a re-analysis of the deposited data

How the results depend on the processing

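The count of genes that fell with CHIR-99021 against MEF stayed within 36 and 46 under every alternative, with 36 to 40 when a library was left out. With carbidopa the 18 falls became 11 with DESeq2, 11 with only the 2 groups compared and 3 to 18 with a library left out. The rises numbered 1 to 2 and the median -0.34 to -0.28 with a library left out. With LY-364947 the 5 falls became 3 with DESeq2, 11 with only the 2 groups compared, where 1 gene rose, and 0 to 1 with a library left out, with medians of -0.32 to -0.16. For CHIR-99021 against carbidopa, leaving out a library gave 25 to 44 falls and medians of -1.20 to -1.01, and against LY-364947 28 to 35 falls and medians of -1.32 to -1.19. For LY-364947 against carbidopa, 1 gene was higher with no filter, and leaving out a library gave 0 to 6 higher, 0 to 2 lower and medians of 0.0299 to 0.207. The cause of these shifts was not tested, apart from the lone library of a group then being assumed to vary like the other groups. With a library left out, the numbers called over all genes shifted as well. No value changed sign where it had passed the test. What the replicate numbers stand for is not given in the sources used here. The differences between replicates 2 and 1 were correlated between groups over all genes tested. The correlation was 0.191 for carbidopa with CHIR-99021. It was -0.218 for LY-364947 with carbidopa and -0.209 for LY-364947 with CHIR-99021. Whether libraries were paired across groups was not tested. With the replicate number as a block, falls were 17, 4 and 45 against MEF for carbidopa, LY-364947 and CHIR-99021, and 38 and 40 for CHIR-99021 against carbidopa and LY-364947. Crossing the LY-364947 numbers in the block, chosen after seeing the data, gave 42 falls for CHIR-99021 against LY-364947 and 0 for LY-364947 against carbidopa. For CHIR-99021 against LY-364947, 3029 of all genes tested passed with the numbers crossed and 1973 with the numbers as labelled. Low counts limit Cdc25c, at 0 to 25 counts a library, and Kif2c, at 10 to 71.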
